A study of Rattus norvegicus with 16 samples.

Results

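The BCL2 family apoptosis regulators were followed through 10 genes: the anti-apoptotic genes Bcl2, Bcl2l1, Bcl2l2 and Mcl1, the pore formers Bax and Bak1, and the BH3-only genes Bid, Bad, Bbc3 and Bcl2l11. Members were chosen by name, as every array probe whose transcript record maps to one of these rat genes. The rule uses no measured value, although the genes were picked with earlier results of these data known. This gave 13 of the 30367 non-control probes on the array, 4 of them for Bcl2l1 and 1 for each other gene. Of these, 12 probes of 9 genes passed the filter on dim probes (at least 1 group whose arrays all read the probe well above background), as did 20278 probes in all, and Bcl2l11 did not pass.

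The samples were primary hippocampal neuron cultures from embryonic day 18 (E18) Sprague-Dawley rats. They were left untreated or given hydroxyurea (HU, 5 µM), an inhibitor of ribonucleotide reductase, for 2, 6, 12 or 24 h, with 3 samples in each of the 5 groups. All cultures grew in Neurobasal medium with B27, and the protocol put the cells into B27 medium lacking antioxidants before HU was added. The time that untreated cultures spent in that medium is not in the labels. Neither is whether replicates were separate cultures, so p-values cover the spread of these samples alone, and that spread may be technical. The study's title concerns protection of hippocampal neurons against several stresses, and the comparisons here ask which transcripts of this family differed during HU treatment.

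The label of primary neurons was checked against markers. All 7 matched neuron markers were well above background on every array. So were 4 of 5 hippocampal excitatory neuron markers (not Prox1) and 3 of 3 GABAergic neuron markers. The same held for 7 of 7 astrocyte, 7 of 8 oligodendrocyte lineage and 5 of 7 microglia markers. All 5 matched markers of radial glia and dividing cells, Mki67 among them, and 4 of 6 fibroblast and pericyte markers were too. Markers of glia and of other cells were thus measured beside those of neurons. In such bulk samples fewer cells of a type and less RNA per cell cannot be told apart. There were 16 arrays on 2 slides for the 15 samples, since untreated replicate 1 was run on each slide and the mean of its arrays was used. The share of probes well above background ranged from 64.6% to 70.4% and no spot was saturated. The median coefficient of variation between spots of 1 probe was at most 6.08% on 14 arrays. It was 7.86% on array 1 of untreated replicate 1 and 17.1% for HU 12 h replicate 3.

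As background, BCL2 family proteins decide at the outer mitochondrial membrane whether a cell enters the intrinsic pathway of apoptosis. BAX and BAK can form pores that release cytochrome c, the anti-apoptotic members hold them and the BH3-only proteins in check, and the BH3-only proteins relay stress and loss of trophic support. Developing neurons lean on this balance, and BAX is the pore former on which death of mouse neurons after trophic factor withdrawal depends. Many members are controlled through binding, cleavage, phosphorylation and protein turnover, none of which an RNA array measures.

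No BCL2 family transcript passed the test at any HU time. Of the 12 tested probes, 0 had an adjusted p under 0.05 (limma, Benjamini-Hochberg over all 20278 probes) at 2, 6, 12 or 24 h, against a background of 0% of all probes in each comparison. The smallest adjusted p of a member was 0.997, at 12 h. At an unadjusted p under 0.05 the count was also 0 of 12 at every time, where 1.22% of all tested probes passed at 2 h, 0.769% at 6 h, 2.39% at 12 h and 0.873% at 24 h. In no comparison did all 3 HU samples of a member probe lie above, or all 3 below, the untreated samples, which 3.18% and 3.09% of all probes did at 2 h, 1.49% and 2.40% at 6 h, 3.14% and 2.03% at 12 h, and 1.36% and 1.67% at 24 h. For the mean of the 4 HU times 0 of 12 passed (background 0%), 0 had an unadjusted p under 0.05 (background 1.66%), and 0 had all 12 treated samples above or all below the untreated ones (background 0.0345% and 0.0296%).

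The intervals show how large a change these samples could still hold. Each of the 4 HU times had its own 95% interval. The ranges below run from the lowest lower limit to the highest upper limit of these 4 intervals, so they are not 95% intervals themselves. They were 0.827-fold to 1.16-fold of untreated for Bad and 0.812-fold to 1.28-fold for Mcl1. For Bcl2l2 the range was 0.775-fold to 1.23-fold and for Bak1 0.795-fold to 1.42-fold. The ranges were 0.644-fold to 1.30-fold for Bid and 0.871-fold to 1.49-fold for Bax. For Bcl2 the range was 0.639-fold to 1.49-fold and for Bbc3 0.717-fold to 1.62-fold. Of the Bcl2l1 probes, A_64_P054735 ran from 0.775-fold to 1.25-fold. The widest range of the family was that of Bcl2l1 probe A_44_P548065, from 0.375-fold to 1.84-fold. Changes within such a range are not excluded with 3 samples a group. A range is not a limit of detection, and larger changes could also miss the threshold. A miss of the threshold does not show that the levels were equal. Over all probes the median half-width of the interval was 0.35 on the log2 scale. Each of the 4 comparisons used the same 3 untreated samples.

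**Figure D1:**
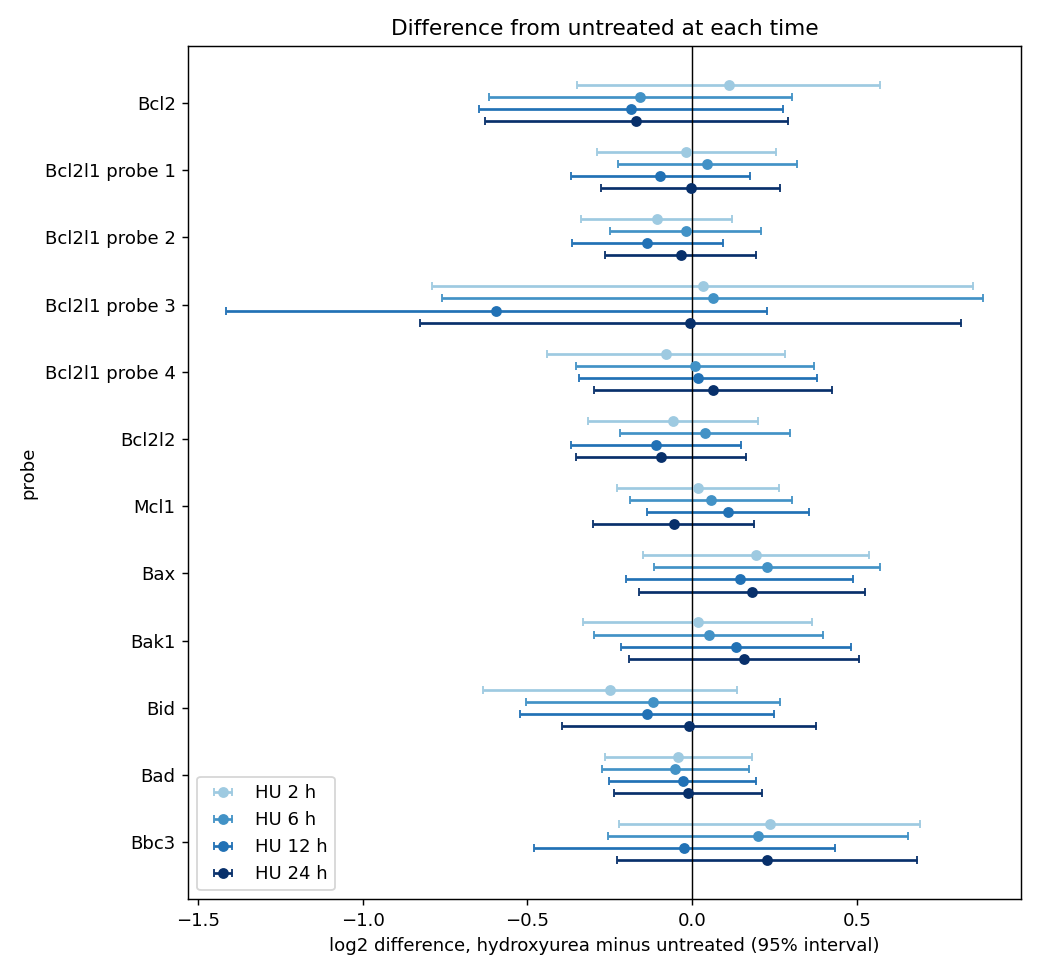
Difference from untreated (log2, HU minus untreated, x axis) for the 12 tested BCL2 family probes at each HU time, with points for the limma estimate and bars for its 95% interval. All 48 intervals include 0; the widest belong to the Bcl2l1 probe 3 (A_44_P548065), whose 12 h estimate is -0.59.

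The anti-apoptotic genes come first. Every level below is the log2 of a probe's processed signal minus the 75th percentile of its array, so that 0 is the 75th percentile, and levels of different probes are not comparable with each other. Bcl2, the founding member, which guards mitochondrial and endoplasmic reticulum membranes, measured -2.52, -2.92 and -2.70 in untreated samples, -2.75, -2.82 and -2.23 at 2 h, -2.77, -3.14 and -2.70 at 6 h, -2.55, -2.88 and -3.27 at 12 h, and -2.72, -3.20 and -2.73 at 24 h. The ranges of untreated and treated samples overlapped at each time. Its difference from untreated was 0.11 at 2 h, -0.16 at 6 h, -0.19 at 12 h and -0.17 at 24 h on the log2 scale, with a standard error (SE) of 0.21. Each of the last 3 rested on 1 low sample: the 6 h difference was -0.02 without replicate 2, the 12 h difference -0.00 without replicate 3 and the 24 h difference -0.01 without replicate 2. HU 24 h against HU 2 h gave -0.28 ± 0.21 (SE), which also missed the test. Without 2 h replicate 3, the sample at -2.23, it was -0.09; within slide 2, which holds that sample, it was -0.73, and within slide 1 it was 0.06.

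Mcl1, which encodes a short-lived anti-apoptotic protein needed by neural precursors in mice, had among the steadiest levels of the family. It measured -1.31, -1.20 and -1.39 in untreated samples, -1.34, -1.29 and -1.22 at 2 h, -1.27, -1.22 and -1.24 at 6 h, -1.33, -1.32 and -0.93 at 12 h, and -1.36, -1.29 and -1.41 at 24 h. A single value, that of HU 12 h replicate 3, stood clear of the others. The differences from untreated were 0.02, 0.06, 0.11 and -0.06 at 2, 6, 12 and 24 h (SE 0.11), and without HU 12 h replicate 3 the 12 h difference was -0.02.

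Bcl2l2, which encodes BCL-W, an anti-apoptotic protein abundant in the mature brain, measured -1.40, -1.30 and -1.48 in untreated samples and between -1.72 and -1.32 over the 12 treated ones. Its group means were -1.40 ± 0.09 in untreated samples, -1.45 ± 0.09 at 2 h, -1.36 ± 0.04 at 6 h, -1.51 ± 0.16 at 12 h and -1.49 ± 0.20 at 24 h (SD, n = 3 each). The lowest samples were 24 h replicate 2 at -1.72 and 12 h replicate 3 at -1.69, and the other treated samples fell among or near the untreated ones.

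Bcl2l1 encodes BCL-XL, the main anti-apoptotic member of maturing neurons, and was the only gene of the family with several probes, 4 probes for 3 transcript records. Probes A_64_P054735 and A_64_P008047 target the same record (NM_001033670). The first measured 3.29, 3.54 and 3.67 in untreated samples, 3.33, 3.46 and 3.66 at 2 h, 3.52, 3.50 and 3.62 at 6 h, 3.49, 3.47 and 3.24 at 12 h, and 3.55, 3.54 and 3.39 at 24 h. Each HU group overlapped the untreated one, and the differences of this probe from untreated were -0.02, 0.05, -0.10 and -0.00 at 2, 6, 12 and 24 h (SE 0.13). All 6 h samples lay narrowly above all 12 h samples (lowest 3.497 at 6 h, highest 3.494 at 12 h). The second gave -0.11, -0.02, -0.14 and -0.03 (SE 0.11). Over the 15 samples these probes had a Pearson r of 0.74, a description over arrays that share slides and scaling.

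The other Bcl2l1 probes were dimmer but well above background on all 16 arrays. A_44_P548065 (NM_031535) lay at -4.23, -4.05 and -4.13 in untreated samples, and all treated samples but one lay between -4.32 and -3.85. The exception was HU 12 h replicate 3 at -6.05, read from a single spot on the array whose replicate spots differed most, and it set the 12 h difference of -0.59 ± 0.38 (SE). Without that sample the 12 h difference was 0.07. A_64_P054730 (NM_001033672) measured between -6.04 and -5.45 over all samples, with differences of -0.08, 0.01, 0.02 and 0.06 (SE 0.17). Across pairs other than the bright one, the 4 probes had r between -0.34 and 0.61. The highest, of A_44_P548065 with A_64_P054735, included HU 12 h replicate 3, the lowest sample on both probes.

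**Figure D2:**
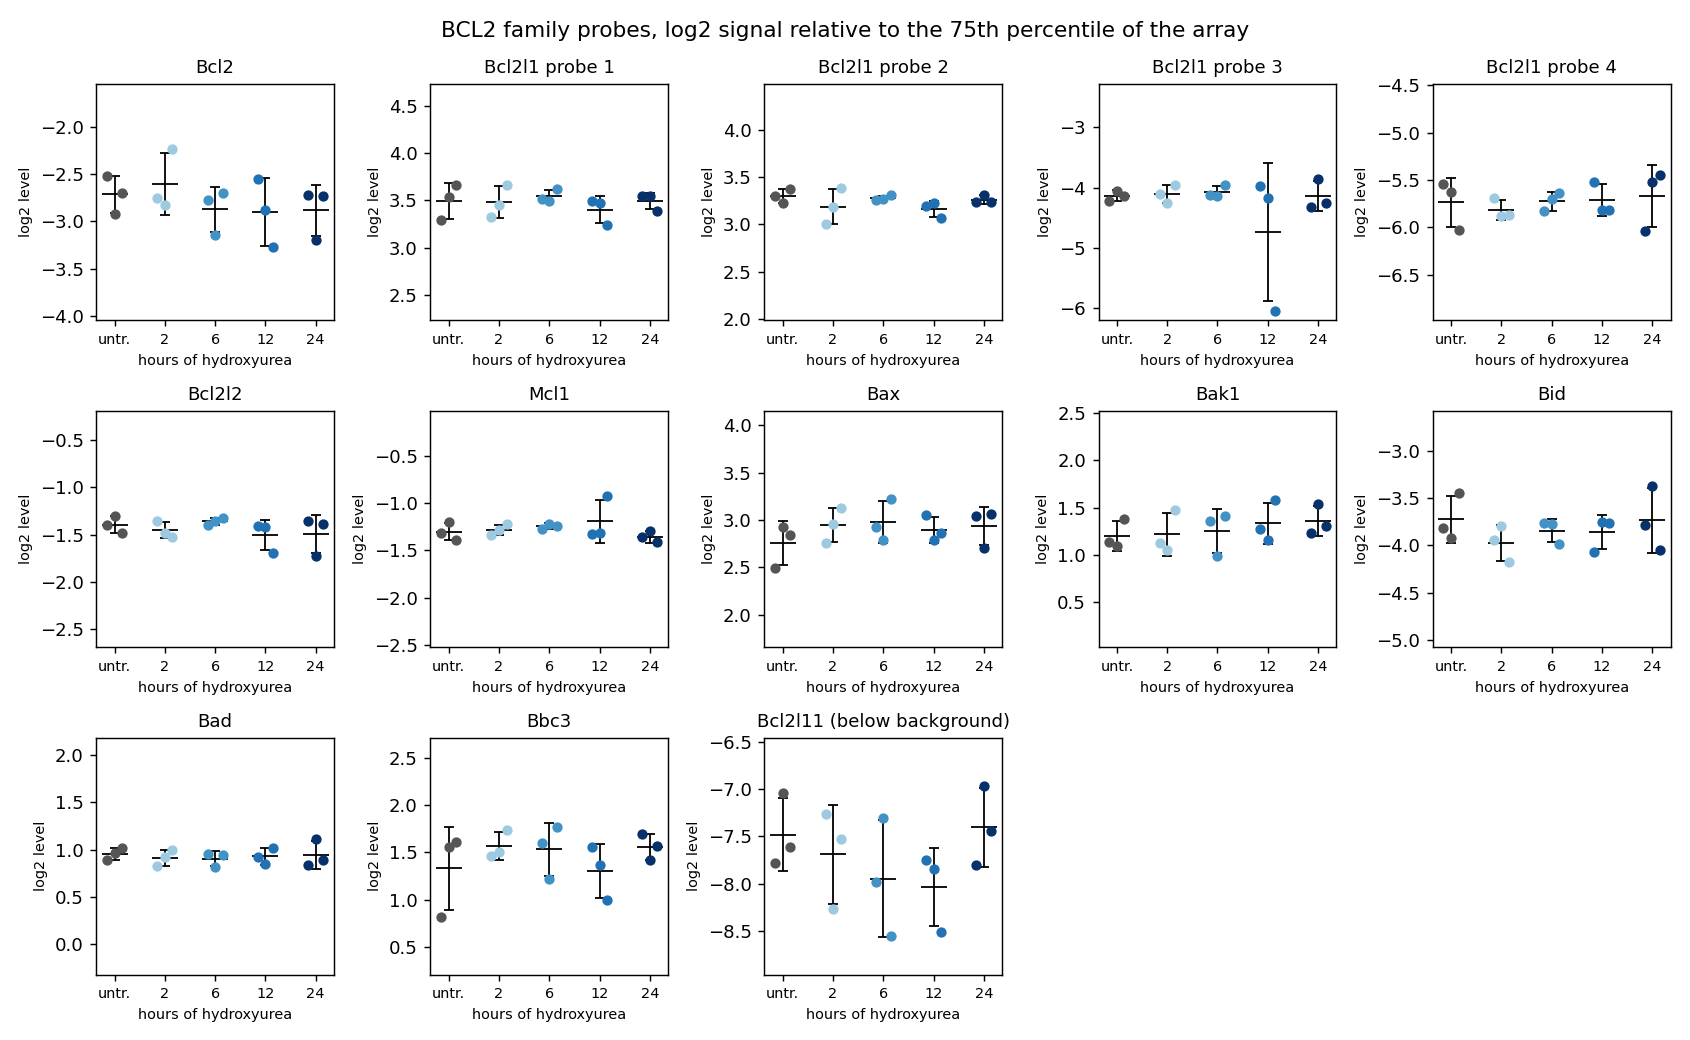
Log2 level relative to the 75th percentile of the array (y axis) of the 13 BCL2 family probes in untreated samples and after 2, 6, 12 and 24 h of HU (x axis); points are samples, bars the mean and SD (n = 3). Each HU group overlaps the untreated group in every panel. Some HU groups do not overlap each other, such as 6 h and 12 h for Bcl2l2. The low point of Bcl2l1 probe 3 (A_44_P548065) is HU 12 h replicate 3 at -6.05. Probes 1, 2 and 4 of Bcl2l1 are A_64_P054735, A_64_P008047 and A_64_P054730.

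The pore formers had higher means than untreated at all 4 times, with 95% intervals that included 0. Bax, the pore former that moves from the cytosol to mitochondria, measured 2.49, 2.93 and 2.84 in untreated samples, 2.76, 2.95 and 3.13 at 2 h, 2.93, 2.79 and 3.22 at 6 h, 3.05, 2.78 and 2.86 at 12 h, and 3.05, 2.70 and 3.06 at 24 h. All 12 treated samples were above untreated replicate 1, but at each time at least 1 was below untreated replicate 2 or 3. Its differences were 0.19, 0.23, 0.14 and 0.18 at 2, 6, 12 and 24 h (SE 0.16), and the mean of the 4 times gave 0.19 ± 0.13 (SE; limma unadjusted p = 0.162, adjusted p = 1.00). Untreated replicate 1 set most of it: without that sample the mean of the 4 times was 0.06 above untreated. Within slides it was 0.19 on slide 1 and 0.40 on slide 2, where the second array of untreated replicate 1, at 2.38, is 1 of 2 untreated arrays.

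Bak1, which encodes the pore former already seated in the mitochondrial membrane, measured 1.13, 1.09 and 1.38 in untreated samples, 1.13, 1.05 and 1.48 at 2 h, 1.36, 0.99 and 1.41 at 6 h, 1.27, 1.16 and 1.58 at 12 h, and 1.23, 1.54 and 1.31 at 24 h. Its means stood in the order of time, at 1.20 ± 0.16 in untreated samples, 1.22 ± 0.23 at 2 h, 1.25 ± 0.23 at 6 h, 1.34 ± 0.22 at 12 h and 1.36 ± 0.16 at 24 h (SD, n = 3 each). Each step was smaller than the SDs on either side and all neighbouring groups overlapped. The order did not hold without HU 12 h replicate 3, when the 12 h difference from untreated was 0.01, against 0.02 at 2 h and 0.05 at 6 h. HU 24 h against untreated gave 0.16 ± 0.16 (SE), and HU 24 h against HU 2 h gave 0.14 ± 0.16, with 0.22 within slide 1 and -0.09 within slide 2.

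Among the BH3-only genes, Bid encodes the protein that caspase-8 cleaves to link death receptors to mitochondria. It measured -3.82, -3.92 and -3.45 in untreated samples, -3.95, -3.80 and -4.18 at 2 h, -3.77, -3.78 and -3.99 at 6 h, -4.07, -3.75 and -3.77 at 12 h, and -3.79, -3.37 and -4.05 at 24 h. Its means were below untreated at all 4 times, by 0.25, 0.12, 0.14 and 0.01 on the log2 scale (SE 0.18), with untreated replicate 3 the highest of its group. Leaving that sample out gave differences of -0.11, 0.02, 0.01 and 0.13 at 2, 6, 12 and 24 h. The 2 h difference of -0.25 had an unadjusted p of 0.189 in limma and an adjusted p of 1.00, and it was -0.01 within slide 1 and -0.54 within slide 2.

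Bad, whose protein is held inactive by phosphorylation under survival signals, was the steadiest member. It measured 0.89, 0.97 and 1.02 in untreated samples, 0.83, 0.92 and 1.00 at 2 h, 0.95, 0.82 and 0.95 at 6 h, 0.92, 0.84 and 1.02 at 12 h, and 0.84, 1.11 and 0.89 at 24 h. Its 4 differences lay between -0.05 and -0.01 (SE 0.10), and its SD within groups, 0.10, was at the 4.67th percentile of all tested probes.

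Bbc3 encodes PUMA, a BH3-only protein of DNA damage responses. It measured 0.82, 1.56 and 1.61 in untreated samples, 1.46, 1.51 and 1.73 at 2 h, 1.60, 1.22 and 1.77 at 6 h, 1.56, 1.36 and 1.00 at 12 h, and 1.69, 1.42 and 1.56 at 24 h. Untreated replicate 1 was the lowest of the 15 samples, and the other untreated samples lay inside the range of the treated ones. The differences from untreated were 0.24 at 2 h, 0.20 at 6 h, -0.02 at 12 h and 0.23 at 24 h (SE 0.21), and the 12 h value was 0.13 without HU 12 h replicate 3. The arrays of untreated replicate 1 read 0.48 and 1.17, a gap of 0.69 that was at the 93.7th percentile of tested probes, where the median gap was 0.11. Over the mean of the 4 HU times the difference was 0.16 with both arrays, 0.28 with the first alone, 0.04 with the second alone and -0.09 without untreated replicate 1.

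Bcl2l11 encodes BIM, a BH3-only protein that in rat and mouse neurons is induced by loss of trophic support. Its probe (A_44_P508055) was well above background on 0 of 16 arrays, at levels between -8.55 and -6.97, so no fold change is given and nothing is said of its direction. The probe is 1 per gene, and a dim probe does not show that the transcript was lacking. For 8 of the 10 members the RefSeq promoter table (GRCr8) held a window of 300 bases, 250 before and 50 after the transcript start that the table uses. The windows of BIM, the undetected member, and of Bcl2 are printed because they were at opposite ends of the family in base composition; capitals mark the motifs searched, on either strand, whose letters are given below them.
Bcl2l11 (chr3:135819792-135820091, + strand): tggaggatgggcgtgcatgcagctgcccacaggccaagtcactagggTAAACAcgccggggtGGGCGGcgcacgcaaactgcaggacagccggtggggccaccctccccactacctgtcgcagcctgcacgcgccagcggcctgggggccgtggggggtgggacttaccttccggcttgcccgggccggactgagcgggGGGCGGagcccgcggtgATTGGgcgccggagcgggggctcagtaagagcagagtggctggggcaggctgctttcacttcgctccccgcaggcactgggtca
Bcl2 (chr13:23366851-23367150, minus strand): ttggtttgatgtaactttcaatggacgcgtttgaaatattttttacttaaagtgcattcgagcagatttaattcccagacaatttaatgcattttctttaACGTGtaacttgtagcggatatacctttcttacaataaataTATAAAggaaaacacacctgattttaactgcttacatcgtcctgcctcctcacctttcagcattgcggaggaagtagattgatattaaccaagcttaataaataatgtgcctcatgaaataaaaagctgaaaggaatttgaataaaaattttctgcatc
The Bcl2l11 window was 71% G and C, at the 93.4th percentile of 33465 windows, and that of Bcl2 was 32.7%, at the 2.72th percentile, with the median of all windows at 51.7%. The GC box GGGCGG stood in 5 of the 8 member windows (Bcl2l2, Mcl1, Bak1, Bid and Bcl2l11), against 33.1% of all windows. The CCAAT box stood in 2 of 8 (Bcl2l1 and Bcl2l11), against 37.5% of all windows. The FOXO core TAAACA stood in 2 of 8 (Bad and Bcl2l11), against 13.7%. The TATA box TATAAA and the hypoxia response core ACGTG stood in 1 of 8 each (Bcl2), against 14.2% and 19.3%. The cyclic AMP response element TGACGTCA stood in 0 of 8, against 1.83%. No 2 different motifs overlapped in a member window. These letters describe the reference; the arrays measured no binding at them.

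Across the family no shared shift was seen. At 2 h 6 of the 12 probes had a mean above untreated, against 49.9% of all tested probes. The count was 8 of 12 at 6 h (47.6% of all probes), 4 of 12 at 12 h (55.5%) and 4 of 12 at 24 h (54.2%). It was 5 of 12 for the mean of the 4 times (50.6%) and 6 of 12 for HU 24 h against HU 2 h (53.2%). The median log2 difference of the 12 probes was -0.00, 0.04, -0.06 and -0.01 at 2, 6, 12 and 24 h, beside -0.00, -0.01, 0.02 and 0.01 over all probes. With 1 probe per gene, the anti-apoptotic genes had medians of 0.00, 0.04, -0.10 and -0.08 at these times, the pore formers 0.11, 0.14, 0.14 and 0.17, and the 3 detected BH3-only genes -0.04, -0.05, -0.03 and -0.01.

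No member separated the treatment times in the tests. For HU 24 h against HU 2 h, 0 of the 12 probes passed the test (background 0% of all probes) and 0 had an unadjusted p under 0.05 (background 0.809%), with differences between -0.28 for Bcl2 and 0.24 for Bid. None had all samples at 24 h above, or all below, those at 2 h (background 1.96% and 1.03%). The moderated F test among the 4 HU times called 0 of 12 (background 0%; unadjusted 0 of 12 against 1.14%). When the 5 groups were put in order of their means, 0 of the 48 gaps between neighbouring groups exceeded the larger of the 2 SDs. All 48 neighbouring pairs overlapped, but some HU times farther apart in this order did not. Bcl2l2 and Bcl2l1 probes A_64_P008047 and A_64_P054735 had all 6 h samples above all 12 h samples. For Mcl1 all 6 h samples (-1.27 to -1.22) were above all 24 h samples (-1.41 to -1.29). The share of all probes that separated between these times was not counted. Bax had its lowest mean in untreated samples and its highest at 6 h, whereas Bcl2 had its lowest at 12 h and its highest at 2 h.

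The difference between the Bax probe and an anti-apoptotic probe on the same array does not depend on scaling between arrays, and its change from the untreated mean was followed in every sample as a description. For Bax minus Bcl2 this change was -0.45, 0.38 and 0.07 in untreated samples, 0.05, 0.31 and -0.11 at 2 h, 0.23, 0.46 and 0.46 at 6 h, 0.13, 0.20 and 0.66 at 12 h, and 0.30, 0.43 and 0.32 at 24 h. Of the 12 treated samples, 11 were above the untreated mean, but untreated replicate 2 at 0.38 lay above 8 of them. The mean of the 4 times was 0.29 above untreated, and 0.06 without untreated replicate 1. Bax minus Bcl2l1 (probe A_64_P054735) was 0.18 to 0.24 at 2 h, against -0.08 to 0.14 in untreated samples, and the groups overlapped at 6, 12 and 24 h. Its mean of the 4 times was 0.20 above untreated, and 0.18 without untreated replicate 1. It was 0.12 with the first array of that sample alone and 0.29 with the second alone. The same Bax values enter every pair. Bax minus Bcl2l2 was 0.26 to 0.30 at 24 h, against -0.26 to 0.18 in untreated samples, and the groups overlapped at 2, 6 and 12 h. When each of the other 20277 tested probes was taken from Bax in the same way, all HU samples lay above all untreated ones for 7.84% of them at 2 h and 4.6% at 24 h. Bax minus Mcl1 overlapped the untreated range of -0.25 to 0.17 at every time, with means of 0.18, 0.17, 0.04 and 0.24.

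**Figure D3:**
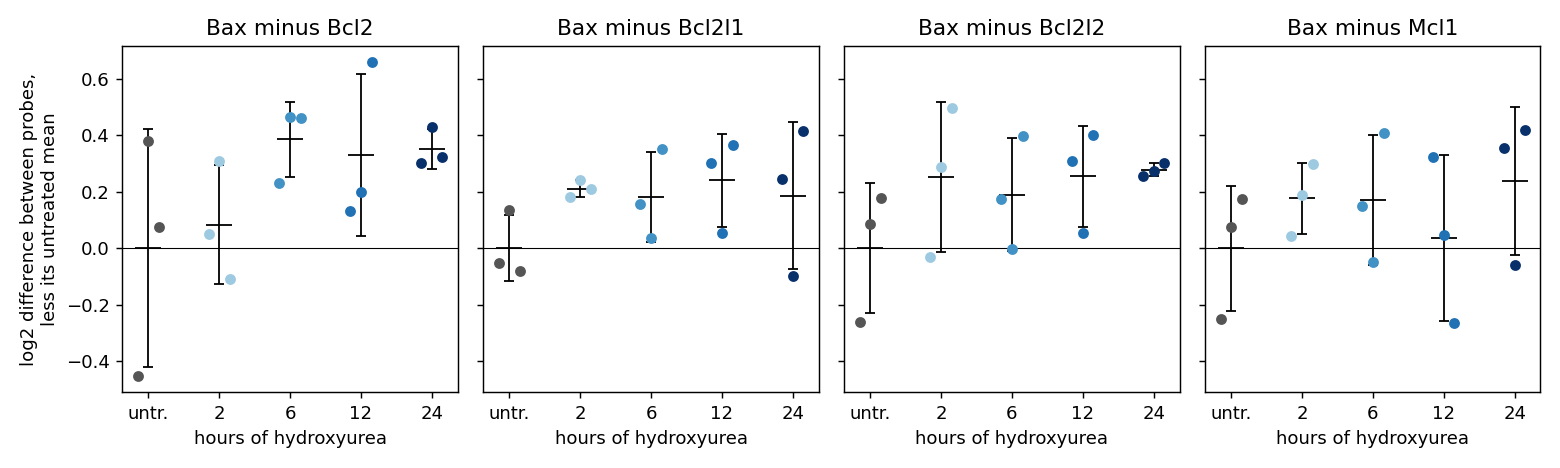
Log2 difference between the Bax probe and the probe of Bcl2, Bcl2l1, Bcl2l2 or Mcl1 on the same array, less its mean in untreated samples (y axis), by group (x axis, hours of HU); points are samples, bars the mean and SD (n = 3). Treated means are above 0 in all panels, while the untreated samples spread from -0.45 to 0.38 for Bax minus Bcl2.

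These small differences varied between slides and with the untreated samples used. Slide 1 held untreated replicate 2, the first array of untreated replicate 1 and 6 treated samples, and slide 2 the other 8 arrays. For the mean of the 4 HU times, Bbc3 was 0.49 above untreated within slide 1 and 0.17 within slide 2, and Bid -0.08 and -0.24. Mcl1 was -0.05 within slide 1 and 0.10 within slide 2, and Bad -0.07 and 0.05, so both changed sign between slides. Bcl2 was -0.10 within slide 1 and -0.07 within slide 2, against -0.00 without untreated replicate 1. Bak1 was 0.10 within slide 1 and 0.15 within slide 2, and 0.06 without untreated replicate 1.

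**Figure D4:**
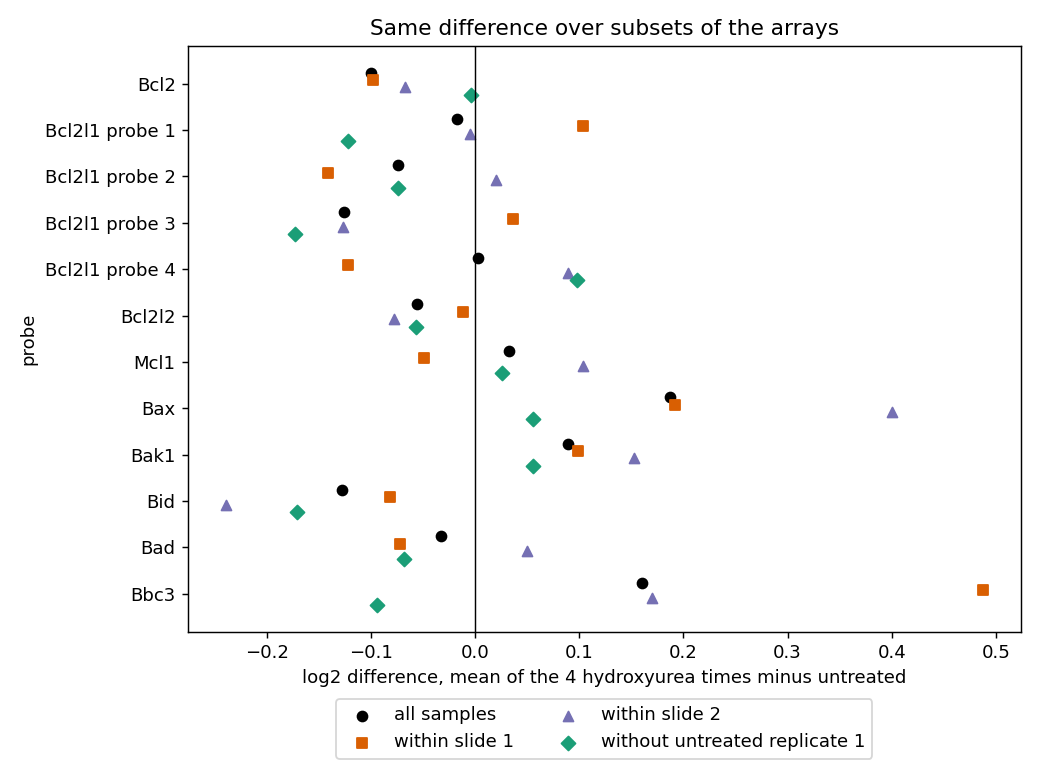
Log2 difference between the mean of the 4 HU times and untreated (x axis) for each tested BCL2 family probe, over all samples, within each slide and without untreated replicate 1. Bax stays right of 0 in all 4 sets, from 0.06 to 0.40, and Bbc3 runs from -0.09 to 0.49.

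The members differed in how much they varied between samples of a group. The SD within groups was 0.10 for Bad and for Bcl2l1 probe A_64_P008047, 0.12 for Mcl1, 0.13 for Bcl2l2, 0.20 for Bax and Bak1, 0.23 for Bid and 0.28 for Bcl2 and Bbc3, beside a median of 0.20 over all tested probes. It was 0.53 for Bcl2l1 probe A_44_P548065, at the 96.1th percentile, where HU 12 h replicate 3 is the low sample. Bax and the Bcl2l1 probes A_44_P548065 and A_64_P008047 were read from 1 spot per array and the other members from 2.

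For each member the named genes with the most similar values over the 15 samples were found among 11982 probes that were well above background on all arrays. They are descriptions from arrays that share slides, scaling and groups, and the highest of so many correlations. Bax was most like Cdip1 (Pearson r = 0.90, Spearman rho = 0.93, and 0.90 without the 2 samples farthest from the median of Bax), which encodes a pro-apoptotic protein in human cells. Bcl2l1 was most like Gga1 (r = 0.97, rho = 0.95, and 0.96 without 2 samples), which encodes a sorting adaptor of the Golgi, then Tomm34 (r = 0.89), a co-chaperone gene linked to mitochondrial protein import, and Neurod2 (r = 0.88), a transcription factor of excitatory neurons. Bcl2 was most like Plxdc2 (r = 0.94) and Cdh7 (r = 0.92), Bak1 like Atg2a (r = 0.94), Bid like Ctdnep1 (r = 0.93), Bad like Coq8b (r = 0.93) and Bbc3 like Bag2 (r = 0.94). For Bcl2l2 the value with Pgm2 was 0.92 and fell to 0.66 without 2 samples, and for Mcl1 the value with Epha5 was 0.93 and fell to 0.72.

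The rest of the pathway was read from 4 lists, with 1 probe per gene, and none of their genes passed the test either. Of 15 other BCL2 family genes 14 had a probe and 11 were tested. Bcl2a1, Bcl2l14 and Pmaip1 (which encodes the BH3-only protein NOXA) were well above background on 0 of 16 arrays. The 11 had 5, 5, 6 and 6 members higher at 2, 6, 12 and 24 h, medians of -0.01, -0.01, 0.05 and 0.02, and 0 called. Bcl2l15, a little-studied family member, had the smallest unadjusted p of the list. It measured -6.05, -6.34 and -6.62 at HU 24 h, against -5.88, -5.28 and -5.54 in untreated samples, so these groups did not overlap, and 1.67% of all probes separated in that direction. The difference was -0.77 ± 0.19 (SE; limma unadjusted p = 0.00147), but the adjusted p was 1.00, and the probe was well above background on 14 of 16 arrays. Bcl2l10, an anti-apoptotic relative, gave 0.32 at 24 h (SE 0.15, unadjusted p = 0.0489), Bnip3, a mitophagy receptor induced by hypoxia, gave 0.25 at 12 h (SE 0.17), and Bok, a pore former related to BAX, gave -0.13 at 6 h (SE 0.12). Bnip3 gave 0.10 at 2 h, its relative Bnip3l 0.18 at 12 h (SE 0.13), the BH3-only gene Bik 0.15 at 6 h (SE 0.24) and Bcl2l15 -0.38 at 2 h.

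Of 16 genes of the apoptosome, caspases and factors released from mitochondria, 14 were tested and 0 were called. Casp8 and Birc3 were well above background on 0 of 16 arrays. There were 3, 4, 9 and 6 members higher at 2, 6, 12 and 24 h, with medians of -0.05, -0.03, 0.01 and -0.02. Birc6, which encodes a giant inhibitor of apoptosis protein, gave -0.19 at 2 h, -0.19 at 12 h and -0.18 at 24 h (SE 0.16), and Xiap, a caspase inhibitor, gave -0.21 at 24 h and -0.20 at 6 h (SE 0.25). Htra2, which encodes a protease released from mitochondria, gave -0.14 at 12 h (SE 0.13). The 95% intervals of all of these included 0.

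All 13 mitochondrial partners of BCL2 proteins were tested and 0 were called, with 6, 6, 4 and 7 higher at 2, 6, 12 and 24 h and medians of -0.04, -0.01, -0.03 and 0.01. Bcap31, which encodes a chaperone of the endoplasmic reticulum that binds BCL2 proteins, had differences of 0.72, 0.65, 0.71 and 0.69 (SE 0.30, unadjusted p = 0.0295, 0.0474, 0.032 and 0.0377 in limma, adjusted p from 0.997 to 1.00). Its 12 treated samples lay between 2.93 and 3.39, against 1.44, 2.92 and 2.97 in untreated samples. Without untreated replicate 1, the sample at 1.44, the differences were 0.22, 0.15, 0.21 and 0.19. Of the others, Opa1, which encodes the fusion protein of the inner mitochondrial membrane, gave -0.20 at 6 h (SE 0.10, unadjusted p = 0.0571), Becn1, an autophagy gene whose protein binds BCL2, gave -0.25 at 12 h (SE 0.13), and Vdac1, which encodes the outer membrane channel, gave 0.15 at 2 h (SE 0.12). Mtch2, which encodes an outer membrane protein that recruits cleaved BID in mice, gave -0.14 at 24 h (SE 0.11).

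Of 24 upstream regulators of the family 20 were tested and 0 were called, with 9, 7, 10 and 12 higher at 2, 6, 12 and 24 h and medians of -0.02, -0.02, -0.02 and 0.03. Foxo3, a transcription factor that induces Bcl2l11 and Bbc3 in rodent neurons, measured -5.00, -4.94 and -4.77 at HU 12 h, against -5.39, -5.15 and -5.27 in untreated samples. All HU 12 h samples were above all untreated ones, as for 3.14% of all probes, and the difference was 0.37 ± 0.16 (SE; unadjusted p = 0.0413), with an adjusted p of 0.997. Without HU 12 h replicate 3 it was 0.30 (limma unadjusted p = 0.117). Pim1, which encodes a kinase that phosphorylates BAD, gave 0.44 at 2 h and 0.30 at 6 h (SE 0.25). Mul1, a mitochondrial ubiquitin ligase gene, gave -0.29 at 12 h (SE 0.16). Hsf1, the heat shock transcription factor gene, gave -0.17 at 2 h (SE 0.11), and Ppp3ca, which encodes a subunit of calcineurin, the phosphatase that activates BAD, gave -0.13 at 6 h and -0.10 at 24 h (SE 0.11).

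At 12 h, the time with the most probes at an unadjusted p under 0.05, the astrocyte markers were higher in 7 of 7 cases. Their median was 0.16, with 0 called and 1 of 7 at an unadjusted p under 0.05 (limma, background 2.39%). The summed astrocyte level (log2) ran from 5.91 to 6.14 at 12 h, against 5.54 to 6.06 in untreated samples. Neuron markers were higher in 5 of 7 cases with a median of 0.21, and their summed level ran from 5.78 to 6.10 at 12 h, against 5.66 to 5.96 in untreated samples. Also at 12 h, microglia markers were higher in 4 of 5 cases (median 0.14) and hippocampal excitatory neuron markers in 3 of 4 (0.09). Fewer were higher for fibroblasts and pericytes (2 of 5, -0.14), radial glia and dividing cells (2 of 5, -0.05), GABAergic neurons (1 of 3, -0.04) and the oligodendrocyte lineage (3 of 7, -0.00). Of the endothelial markers, Cldn5 and Flt1 were well above background on 0 of 16 arrays and Pecam1 and Cdh5 on 16 of 16, and the median of the last pair was 0.08 at 12 h and 0.24 at 2 h and at 24 h, with 0 called. The part of cell composition in the values of Foxo3 or of any BCL2 family member was not tested.

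**Figure D5:**
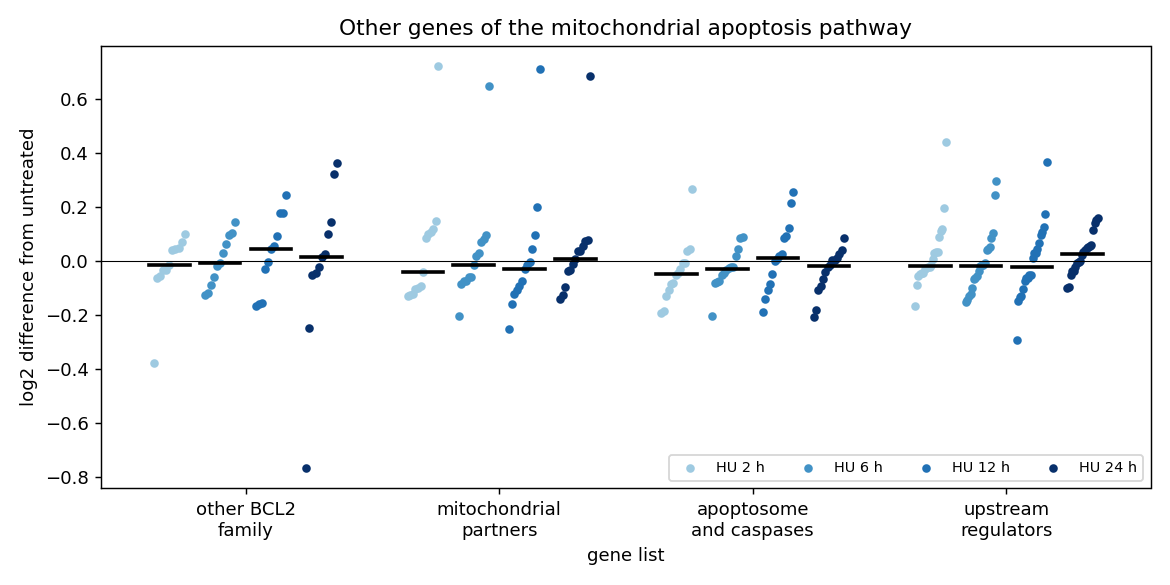
Log2 difference from untreated (y axis) of each tested gene of the 4 further lists (x axis) at 2, 6, 12 and 24 h of HU; points are genes, lines the list medians. The medians lie between -0.05 and 0.05; the high points among mitochondrial partners are Bcap31, from 0.65 to 0.72, and the low point at 24 h is Bcl2l15 at -0.77.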

How the data were processed

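RNA was labelled with Cy3 and hybridised to 1-colour Agilent rat arrays, per the labels. Per the file headers, the authors deposited scanner files of spot intensity from Agilent Feature Extraction, in which the processed signal is background-subtracted and not scaled between arrays. The deposited series values are a score per array (the log signal less its mean, over its SD), used as an alternative; for HU 24 h, the columns of replicates 1 and 3 matched the scanner file of the other, not their own. Control spots and outlier spots were left out, spots of a probe averaged, and the 75th percentile of each array's log2 signal subtracted. Probe accessions were matched without versions to RefSeq genes of GRCr8 (18758 of 30367 probes matched). Coordinates were not used to place probes, because the headers name another build for the design. The GRCr8 coordinates printed above belong to promoter windows alone.

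Groups were compared at probe level with limma 3.58.1 (R 4.3.3; version 1.17.8 of data.table), 1 fit over 15 samples with 10 residual degrees of freedom, no covariate, two-sided, with Benjamini-Hochberg adjustment within each comparison at 0.05. The script was tested on simulated data. The array has no read depth; the number of arrays limits the precision. Members and lists were chosen with earlier results of these data known. All probes of the 10 genes are named, and in the 4 further lists the 2 genes with the smallest unadjusted p at each time, of which 2 genes are not reported here; for likeness, from the 3 highest Pearson correlations per member. Alternatives changed scaling, background correction, filter, probe choice, blocks, weights, or left out samples; normexp was run on the median signal in place of the mean signal.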

Additional observations from a re-analysis of the deposited data

How the results depend on the processing

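In all 35 alternatives 0 member probes passed the test, and the smallest adjusted p of a member (limma) was 0.552, without HU 12 h replicate 2, for Bcl2l1 probe A_44_P548065. Over all probes the count of calls stayed at 0 except for HU 12 h against untreated within slide 1, where 4 probes, none of a member, passed; that set has 1 HU 12 h array. The cause was not tested. Of 2490 values of members under alternatives, 224 had the other sign, most often within slide 1 (23 of 72), without untreated replicate 3 (19 of 72), within slide 2 and with array weights (17 of 72 each) and with the deposited scores (15 of 72). Under normexp the median difference of all probes at 12 h was 0.11 on the log2 scale, against 0.02 as reported. Replicate numbers were not taken to pair the samples, since the labels name no shared culture and not every same-numbered pair had deviations correlated over 0.1. As a hint from the data, 19 of 30 same-numbered pairs did (median 0.13, from -0.42 to 0.41), against 11 of 60 pairs with other numbers (median -0.08). With the replicate block 0 probes were called in every comparison. The 2 alternatives added after seeing the data, slide as a block over the 15 samples and leaving out both noisy arrays, also called 0 probes.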
